A study of Homo sapiens with 11 samples.

Results

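The 8 genes described here encode kinases and regulators of PI3K, AKT and mTOR signalling. They were taken by name from the 31325 gene symbols of the array data, and earlier results of these data were known when they were chosen. The genes are AKT1, AKT2, PIK3CA, PIK3R1, TSC1, TSC2, RICTOR and EIF4EBP1, all 8 of which were found. mRNA was measured on Illumina HumanHT-12 v4 BeadChips in MDA-MB-231, a human breast cancer line, and SKOV3, a human ovarian cancer line that the study's text names by its derivative SKOV3.ip1. Cells of each line received the mimic of miR-365a-3p or, per the sample labels, a control miRNA. The groups held 3 arrays each, apart from the SKOV3 controls with 2 arrays, so that 11 arrays fell into 4 groups. The sample labels give 48 h of treatment, whereas the description of the series gives 24 h. Per the study's text, SKOV3.ip1 carries a mutation of PIK3CA. Nothing in the labels says that the arrays of a group came from separate cultures, so a p-value measures only the spread between these arrays, which may be technical.

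Class I PI3 kinases, held in check by regulatory subunits such as the product of PIK3R1, phosphorylate a membrane lipid when growth factor receptors are active. The lipid brings AKT to the membrane, where PDPK1 and the RICTOR-containing complex mTORC2 activate it. AKT in turn inhibits the TSC1 and TSC2 complex, which otherwise keeps the GTPase RHEB and thereby mTORC1 inactive, and mTORC1 phosphorylates translation regulators such as the product of EIF4EBP1. The pathway is among those most often mutated in breast and ovarian cancers.

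The mature sequence of the transfected miRNA is shown because its seed, bases 2 to 8 in capitals, is what animal miRNAs chiefly use to pair with mRNAs. RefSeq (GRCh38.p14) places the mature product of MIR365A at chr16:14309340-14309361 and that of MIR365B at chr17:31575478-31575499, both on the plus strand. Both genes give the same 22 bases, as does the entry of the study's mimic library.
hsa-miR-365a-3p: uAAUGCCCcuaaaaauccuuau

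Values were taken as log2 and are given after quantile normalization, which gives every array the same distribution of values. A level can be set against the same gene on other arrays but not against another gene. Tests were limma's moderated test over all 31325 genes with Benjamini-Hochberg adjustment, a gene is called at an adjusted p under 0.05, and the intervals given are 95% confidence intervals. A group mean in the lowest 60% of all genes in that group was termed near the floor, where a fall can hardly be seen. Before this normalization, the 75th percentile of an array lay between 7.56 and 7.65 with miR-365a and between 7.86 and 7.93 with control miRNA in MDA-MB-231, and between 7.67 and 7.80 against 7.98 and 8.04 in SKOV3. This shift moved with the treatment, its part in the results was not tested, and calls that differ on the deposited values are given beside the result. The number of arrays limits the precision. In whole cultures, fewer cells that express a gene and less RNA per cell cannot be told apart. Of the markers of the lines, ERBB2 was at 10.91 and 10.82 in the SKOV3 controls and between 7.53 and 7.67 in the MDA-MB-231 controls. With miR-365a it was at 8.52, 9.69 and 9.65 in SKOV3. KRT7, ESR1, CDH1 and EPCAM were also higher in the SKOV3 controls, and CD44 in the MDA-MB-231 controls. In MDA-MB-231 with miR-365a, KRT7 (9.04, 8.92 and 8.83) was above the SKOV3 controls (8.22 and 8.21). CD44 there (8.44, 8.84 and 8.93) was below the SKOV3 controls (10.49 and 10.46). ESR1, CDH1 and EPCAM there stayed below the SKOV3 controls. KRT18 overlapped between the controls, and VIM was high in both lines. CAV1, listed as a marker of MDA-MB-231, was higher in the SKOV3 controls (12.40 and 12.33 against 12.14, 12.02 and 12.04). The leukocyte and endothelial genes PTPRC and PECAM1 were near the floor in the controls of both lines. With miR-365a, PTPRC was near the floor in both lines, and PECAM1 was near it in SKOV3 and just above it in MDA-MB-231.

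TSC1 and TSC2 were the members called lower with miR-365a in both cell lines, and no member was called higher in either. AKT1 and PIK3R1 also had every treated array below every control in both lines, without a call in both. In MDA-MB-231, 4 of the 8 genes were called lower (AKT1, TSC1, TSC2 and RICTOR), where 11.7% of all genes were called lower and 14.4% higher. In SKOV3, 2 of the 8 were called lower (TSC1 and TSC2), where 7.11% of all genes were lower and 7.25% higher. Among genes above the median mean, 22.1% were lower and 27.9% higher in MDA-MB-231, and 13.5% and 14.3% in SKOV3. Near the floor in all 4 groups were 2 of the 8 members and 16074 of the 31325 genes. Calls lower in both lines were made for 2 of the 8 members and for 5.39% of all genes. The median log2 fold change of the 8 genes was -0.12 in MDA-MB-231 and -0.091 in SKOV3, and that of all genes was 0.0064 and 0.0066. All miR-365a arrays lay below all control arrays for 5 members in MDA-MB-231 (17.0% of all genes) and for 4 in SKOV3 (18.2%), and above them for 0 members in MDA-MB-231 (21.0%) and 1 in SKOV3 (23.7%). On the deposited values, 4 members were lower in MDA-MB-231, where 17.9% of all genes were lower and 7.26% higher, and 3 were lower in SKOV3, where 14.0% were lower and 3.83% higher. The plot of the changes with their intervals shows these differences in size and precision.

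**Figure D1:**
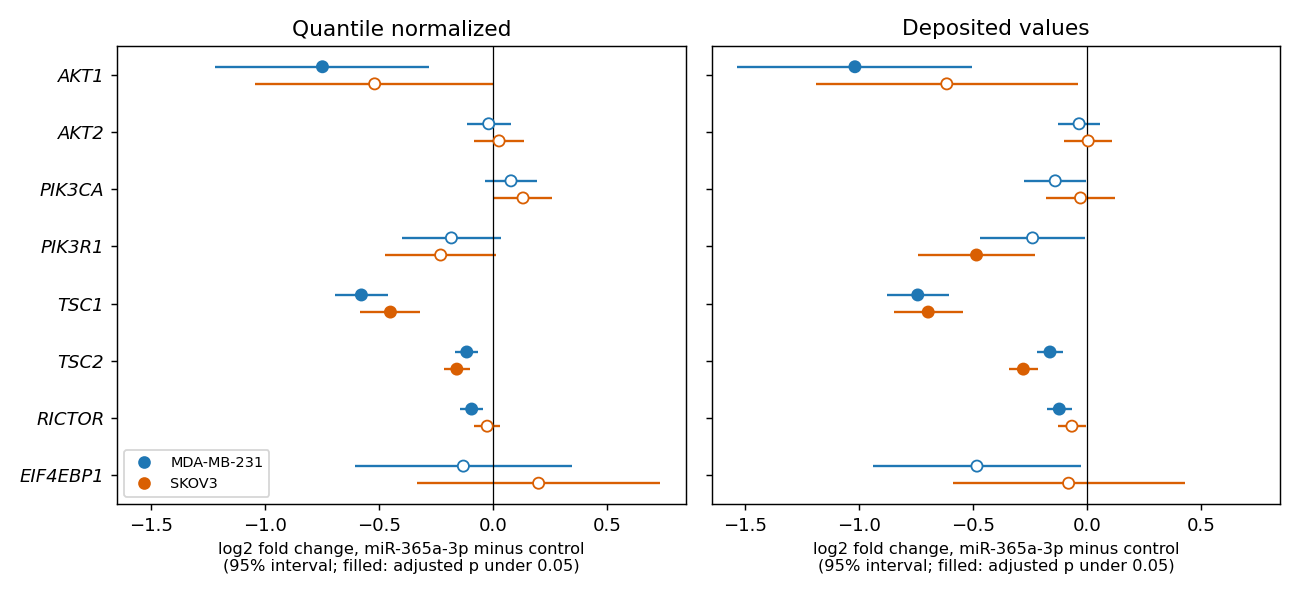
Log2 fold change (x axis, miR-365a-3p minus control) of the 8 genes (y axis) in MDA-MB-231 (blue) and SKOV3 (orange), after quantile normalization (left) and on the deposited values (right), with points for the estimate, filled where called, and lines for the 95% confidence interval. On the left, TSC1 (-0.58 and -0.45) and TSC2 were called in both lines, AKT1 and RICTOR in MDA-MB-231, and the intervals of AKT1 and EIF4EBP1 were the widest.

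PIK3CA encodes the catalytic subunit p110 alpha. Its log2 levels in MDA-MB-231 were 7.70, 7.62 and 7.58 with control miRNA and 7.65, 7.75 and 7.74 with miR-365a. In SKOV3 they were 7.52 and 7.56 with control miRNA and 7.57, 7.71 and 7.74 with miR-365a. The groups overlapped in MDA-MB-231, and the SKOV3 groups stood just apart, with miR-365a higher. The log2 fold change was 0.080 ± 0.050 (SE) in MDA-MB-231 (limma, adjusted p = 0.337, interval -0.035 to 0.20) and 0.13 ± 0.056 (SE) in SKOV3 (adjusted p = 0.183, interval 0.0046 to 0.26). Its direction depended on the scaling, since the deposited values gave -0.14 and -0.030, and it was called higher in SKOV3 with array weights (0.18, adjusted p = 0.0107) or without the first miR-365a array (0.18, adjusted p = 0.0470).

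PIK3R1 encodes the regulatory subunit p85 alpha, which stabilizes and restrains the catalytic subunit. In MDA-MB-231 the levels of PIK3R1 were 7.49, 7.59 and 7.52 with control miRNA and 7.34, 7.33 and 7.39 with miR-365a. The SKOV3 levels were 7.99 and 7.93 with control miRNA and 7.48, 7.92 and 7.81 with miR-365a. The treated arrays were below the controls in both lines, by little for the second SKOV3 array, and the first SKOV3 array lay well below the other two. In MDA-MB-231 the mean with miR-365a was near the floor. Neither fall was called, with log2 fold changes of -0.18 ± 0.096 (SE, limma, adjusted p = 0.241) and -0.23 ± 0.11 (SE, adjusted p = 0.240). The MDA-MB-231 fall was called when that line was fitted alone (adjusted p = 0.0138) or when the first miR-365a array of SKOV3 was left out (adjusted p = 0.00967), and the SKOV3 fall was called on the deposited values (-0.49, adjusted p = 0.0180) and with arrays centred on their medians (-0.45, adjusted p = 0.0269). An exact permutation test that exchanged treatment labels inside each line, two-sided over 200 arrangements, gave p = 0.015 for the mean of both differences.

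PIK3R1 was also the only member called different between the control groups of the lines. The SKOV3 control mean was 0.43 ± 0.11 (SE) above that of MDA-MB-231 (limma, adjusted p = 0.0244, interval 0.19 to 0.68), where 8.34% of all genes were called higher and 7.76% lower. Each control array of SKOV3 was above each of MDA-MB-231. The call was lost without MDA-MB-231 control 1 or 3 (adjusted p = 0.0708 and 0.0668) and without SKOV3 control 1 or 2 (adjusted p = 0.158 and 0.104). In order of level, the SKOV3 controls came first, then SKOV3 with miR-365a, the MDA-MB-231 controls and MDA-MB-231 with miR-365a, and within each line the neighbours in this order were not called different.

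AKT1 and AKT2 encode serine/threonine kinases activated downstream of PI3K. In MDA-MB-231, AKT1 was at 9.89, 9.22 and 9.81 with control miRNA and 8.65, 8.95 and 9.08 with miR-365a. In SKOV3 it was at 9.78 and 9.71 with control miRNA and 8.96, 9.54 and 9.18 with miR-365a. The groups did not overlap in either line, although the second MDA-MB-231 control was close to the treated arrays and the second treated SKOV3 array was close to its controls. AKT1 fell in MDA-MB-231 by 0.75 on the log2 scale, from 9.64 ± 0.36 (SD, n = 3) to 8.89 ± 0.22 (SD, n = 3), with limma's adjusted p = 0.0263 and an interval of -1.22 to -0.28. The SKOV3 difference was -0.52 ± 0.23 (SE, limma, adjusted p = 0.210, interval -1.04 to 0.0070) and was not called. The exact permutation p over both lines was 0.01.

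The AKT1 call in MDA-MB-231 was close to its threshold. It was lost when MDA-MB-231 was fitted alone (limma, adjusted p = 0.0520), with either replicate block (adjusted p = 0.0522 where the lines shared the block and 0.0931 within each line), and without control 1, control 3, miR-365a array 1 or miR-365a array 2 of that line, where the log2 fold change was between -0.78 and -0.62. In SKOV3, AKT1 was called lower with array weights (-0.53, adjusted p = 0.0445).

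AKT2 was near the floor in all 4 groups, and its arrays overlapped. Its levels in MDA-MB-231 ranged from 7.34 to 7.40 with control miRNA and from 7.29 to 7.37 with miR-365a. In SKOV3 they were 7.37 and 7.31 against 7.37, 7.29 and 7.45. The log2 fold changes were -0.017 (limma, adjusted p = 0.857) and 0.028 (adjusted p = 0.848).

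RICTOR encodes the scaffold that defines mTORC2. It was near the floor in all 4 groups too, but with little spread between arrays. RICTOR was measured in MDA-MB-231 at 7.41, 7.42 and 7.45 with control miRNA and 7.33, 7.34 and 7.33 with miR-365a. SKOV3 arrays gave 7.39 and 7.40 with control miRNA and 7.40, 7.37 and 7.33 with miR-365a. The groups were apart in MDA-MB-231 and overlapped in SKOV3. RICTOR fell in MDA-MB-231 by 0.092 on the log2 scale (SE 0.023, limma, adjusted p = 0.0158), a call lost with the replicate block within each cell line (adjusted p = 0.0580) and without MDA-MB-231 control 3 (-0.080, adjusted p = 0.0629). In SKOV3 the difference was -0.024 ± 0.025 (SE, adjusted p = 0.711).

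**Figure D2:**
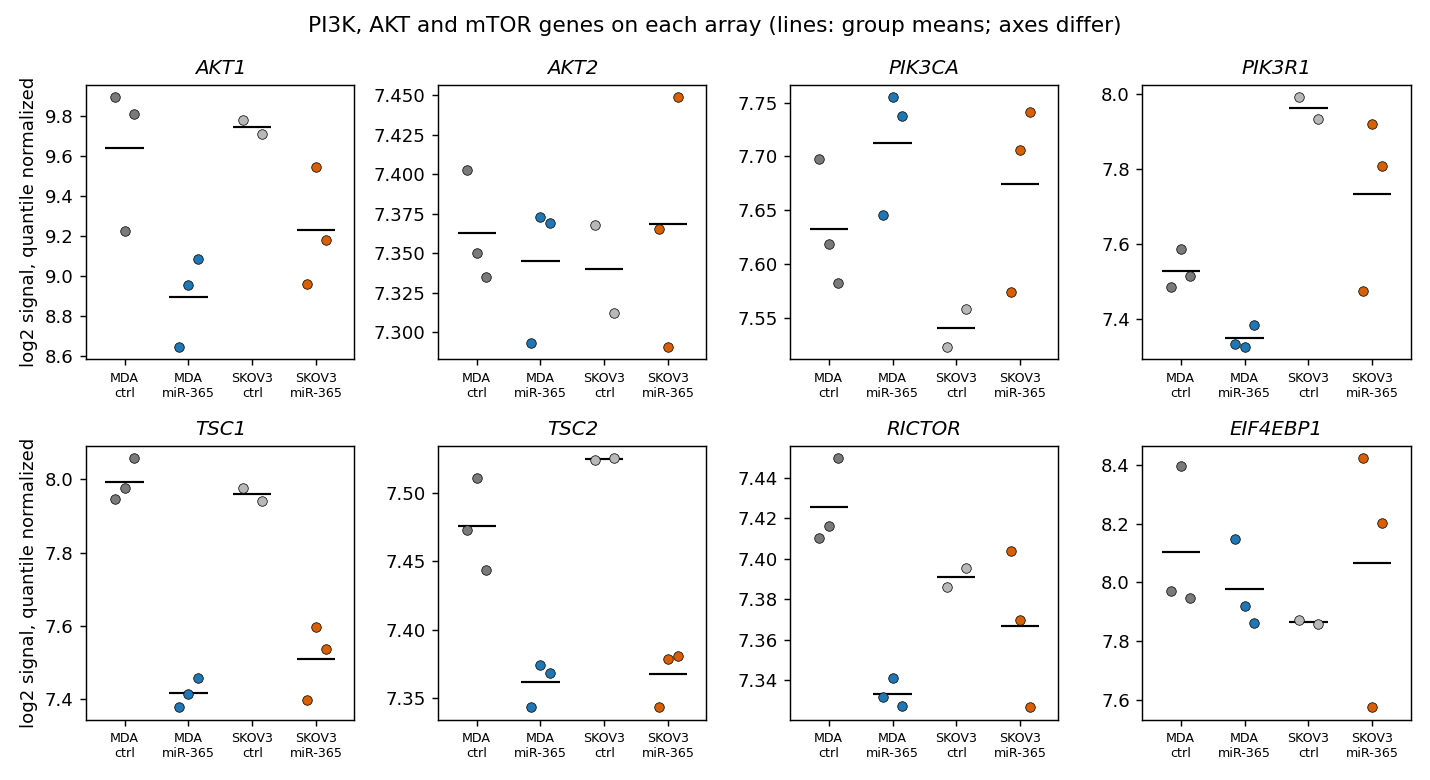
Log2 level after quantile normalization (y axis) of the 8 genes on each of the 11 arrays, by group (x axis, ctrl for control miRNA and miR-365 for miR-365a-3p), with points for arrays and horizontal lines for group means, on axes that differ between genes. AKT1, PIK3R1, TSC1 and TSC2 separated by treatment in both lines, the AKT2 arrays overlapped, and PIK3R1 also differed between the controls of the lines.

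TSC1, or hamartin, stabilizes the TSC complex. The MDA-MB-231 arrays gave TSC1 levels of 7.95, 7.98 and 8.06 with control miRNA and 7.38, 7.42 and 7.46 with miR-365a. For SKOV3, the values were 7.98 and 7.94 with control miRNA and 7.40, 7.60 and 7.54 with miR-365a. The treated arrays were clearly below the controls, with gaps larger than the spread within any group. TSC1 fell by 0.58 in MDA-MB-231 (SE 0.052, limma, adjusted p = 0.000101, interval -0.69 to -0.46) and by 0.45 in SKOV3 (SE 0.058, adjusted p = 0.00131, interval -0.58 to -0.32). The MDA-MB-231 mean with miR-365a was near the floor, which limits how far a fall could be seen there. The exact permutation p was 0.005, the smallest that 200 arrangements can give. Both calls held under all 9 other settings and with each array left out, and the log2 fold changes there lay between -0.74 and -0.48 in MDA-MB-231 and between -0.70 and -0.39 in SKOV3. The control levels of the lines were close, at 7.99 ± 0.058 (SD, n = 3) and 7.96 ± 0.025 (SD, n = 2).

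TSC2, or tuberin, carries the GTPase-activating domain that acts on RHEB. In MDA-MB-231 the levels of TSC2 were 7.47, 7.51 and 7.44 with control miRNA and 7.34, 7.37 and 7.37 with miR-365a. The SKOV3 levels were 7.52 and 7.53 with control miRNA and 7.34, 7.38 and 7.38 with miR-365a. Again no treated array reached its controls. TSC2 fell by 0.11 in MDA-MB-231 (SE 0.022, limma, adjusted p = 0.00507, interval -0.16 to -0.063) and by 0.16 in SKOV3 (SE 0.025, adjusted p = 0.00351, interval -0.21 to -0.10). The exact permutation p was 0.005. The means with miR-365a were near the floor in both lines, which limits how far a fall could be seen. The controls of the lines were called different only on the deposited values (SKOV3 higher by 0.13, adjusted p = 0.0119) and with arrays centred on their medians (by 0.11, adjusted p = 0.0229). Both falls kept their calls under all 9 other settings and with each array left out.

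The promoters of TSC1 and TSC2 are shown because these genes were called lower in both lines. The windows run from 250 bases before to 50 bases after the start of the gene in RefSeq (GRCh38.p14), 300 bases each, with TSC1 on the minus strand at chr9:132944567-132944866 and TSC2 on the plus strand at chr16:2047735-2048034. Capitals mark the GC box (GGGCGG or, on the other strand, CCGCCC) and the ETS-type motif CCGGAAG (or CTTCCGG), which do not overlap here.
TSC1: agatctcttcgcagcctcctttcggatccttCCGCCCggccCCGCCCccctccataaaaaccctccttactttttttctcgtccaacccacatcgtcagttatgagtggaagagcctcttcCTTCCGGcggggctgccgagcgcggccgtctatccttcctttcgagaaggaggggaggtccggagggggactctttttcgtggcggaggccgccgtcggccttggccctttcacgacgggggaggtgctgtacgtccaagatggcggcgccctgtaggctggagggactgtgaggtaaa
TSC2: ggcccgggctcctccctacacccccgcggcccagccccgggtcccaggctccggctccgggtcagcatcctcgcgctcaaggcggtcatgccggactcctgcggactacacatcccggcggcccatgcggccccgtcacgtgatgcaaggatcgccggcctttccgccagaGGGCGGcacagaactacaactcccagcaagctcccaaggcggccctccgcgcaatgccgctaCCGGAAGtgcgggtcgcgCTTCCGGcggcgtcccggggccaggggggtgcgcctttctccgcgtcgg
The TSC1 window held 2 GC boxes and 1 CCGGAAG motif, and the TSC2 window held 1 GC box and 2 CCGGAAG motifs. Of 35116 promoters of the same length, 45.0% held a GC box and 10.3% held CCGGAAG on either strand. Among the other members, the AKT1 window (chr14:104795699-104795998) held 7 GC boxes and no CCGGAAG, and the PIK3CA window (chr3:179148107-179148406) held 1 of each. The AKT2, PIK3R1 and RICTOR windows held 4, 5 and 4 GC boxes and no CCGGAAG, and no window was available for EIF4EBP1. These are matches of letters and describe no binding.

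EIF4EBP1 encodes 4E-BP1, which binds the cap-binding factor EIF4E until mTORC1 phosphorylates it. EIF4EBP1 was measured in MDA-MB-231 at 7.97, 8.40 and 7.95 with control miRNA and 8.15, 7.92 and 7.86 with miR-365a. SKOV3 arrays gave 7.87 and 7.86 with control miRNA and 8.42, 7.58 and 8.20 with miR-365a. The groups overlapped in both lines, and the treated SKOV3 arrays lay on both sides of their controls. The log2 fold changes were -0.13 ± 0.21 (SE, limma, adjusted p = 0.770, interval -0.60 to 0.35) and 0.20 ± 0.23 (SE, adjusted p = 0.746, interval -0.33 to 0.73), so changes of these sizes in either direction were not detectable with these arrays. The SKOV3 value turned to -0.082 on the deposited values. On these values the MDA-MB-231 groups stood apart, with miR-365a lower. That difference was -0.48 and was not called (limma, adjusted p = 0.124, interval -0.94 to -0.029).

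Whether the response of a member differed between the lines was tested as the SKOV3 response minus that of MDA-MB-231. None of the 8 was called by limma, with adjusted p between 0.471 and 0.950, where 2.54% of all genes were called. The interval was -0.049 to 0.30 for TSC1, -0.12 to 0.032 for TSC2, -0.0095 to 0.15 for RICTOR and -0.47 to 0.93 for AKT1. AKT1 and RICTOR, called in MDA-MB-231 and not in SKOV3, were therefore not shown to respond differently. The exact permutation test over both lines was run for all 8 genes without adjustment, and besides the values above it gave p = 0.03 for RICTOR, 0.04 for PIK3CA, 0.84 for EIF4EBP1 and 0.88 for AKT2.

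For each member, the genes most like it in pattern were found by Pearson's r over the 11 arrays, among 15662 genes with a mean above the median. TSC1 was followed most closely by POTEF (r = 0.998) and ARHGDIA (r = 0.996), and TSC2 by KIAA0240 (r = 0.989) and LOC283267 (r = 0.980). For AKT1 they were FBXO46 (r = 0.975) and MYO9A (r = 0.973), and for PIK3R1 TMOD2 (r = 0.989) and PDE7B (r = 0.987). RICTOR was closest to GLI3 (r = 0.946) and LBA1 (r = 0.941). The values were lower for PIK3CA, with USPL1 (r = 0.920) and LOC345041 (r = 0.908, which became -0.0625 on the deposited values). They were lowest for EIF4EBP1, with GNG5 (r = 0.881) and LOC100129588 (r = 0.878), and AKT2, with PPP1R14D (r = 0.856) and ARHGAP10 (r = 0.842). These are descriptions over arrays that share the treatment and the cell line.

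Another 79 genes of the pathway were listed by role, and 78 of them were matched, 10 through an older symbol. In MDA-MB-231, 29 of the 78 were called lower and 17 higher, and in SKOV3, 19 were lower and 10 higher. In both lines, 16 were lower and 8 were higher, against 5.39% and 5.76% of all genes. Of the 78, 10 were near the floor in all 4 groups, as were 16074 of the 31325 genes, so the shares of all genes are an uneven background. Among genes above the median mean, 22.1% were lower and 27.9% higher in MDA-MB-231, and 13.5% and 14.3% in SKOV3. The balance of directions depended on the scaling. On the deposited values, 34 were lower and 8 higher in MDA-MB-231, and 32 were lower and 3 higher in SKOV3. On that scale 17.9% of all genes were lower and 7.26% higher in MDA-MB-231, and 14.0% and 3.83% in SKOV3. Without the second SKOV3 control, 1 gene was called higher in SKOV3. The median log2 fold change of the 78 genes was -0.052 in MDA-MB-231 and -0.036 in SKOV3.

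The counts by role stand against 11.7% of all genes lower and 14.4% higher in MDA-MB-231, and 7.11% and 7.25% in SKOV3. Among genes above the median mean, these shares were 22.1% and 27.9%, and 13.5% and 14.3%. The 6 receptors and adaptors had 2 calls in MDA-MB-231, both lower, and none in SKOV3. Of the 9 further PI3K subunits, 6 were lower and 1 higher in MDA-MB-231, and 4 were lower in SKOV3. Of 5 lipid phosphatases, 2 were lower and 1 higher in MDA-MB-231, and 1 was lower and 1 higher in SKOV3. Of 12 genes for kinases, phosphatases and substrates around AKT, 7 were lower in MDA-MB-231 and 5 in SKOV3, with none higher. Of 4 regulators of TSC and RHEB, 1 was lower and 1 higher in each line. Of 8 mTOR complex subunits, 3 were lower and 3 higher in MDA-MB-231, and 1 was lower and 2 higher in SKOV3. Of 21 amino acid and energy sensors, 3 were lower and 8 higher in MDA-MB-231, and 2 were lower and 4 higher in SKOV3. Of 13 mTORC1 outputs, 5 were lower in each line, and 3 and 2 were higher. Differences between roles were not tested, and they changed with the scaling. On the deposited values, the mTOR complex subunits had 3 lower and 0 higher in MDA-MB-231, and 4 lower and 1 higher in SKOV3. The sensors then had 4 lower and 6 higher, and 3 lower and 1 higher. The mTORC1 outputs had 8 lower and 1 higher, and 6 lower and 1 higher. The genes around AKT had 8 and 10 lower with none higher, and the PI3K subunits 7 and 6 lower with none higher.

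**Figure D3:**
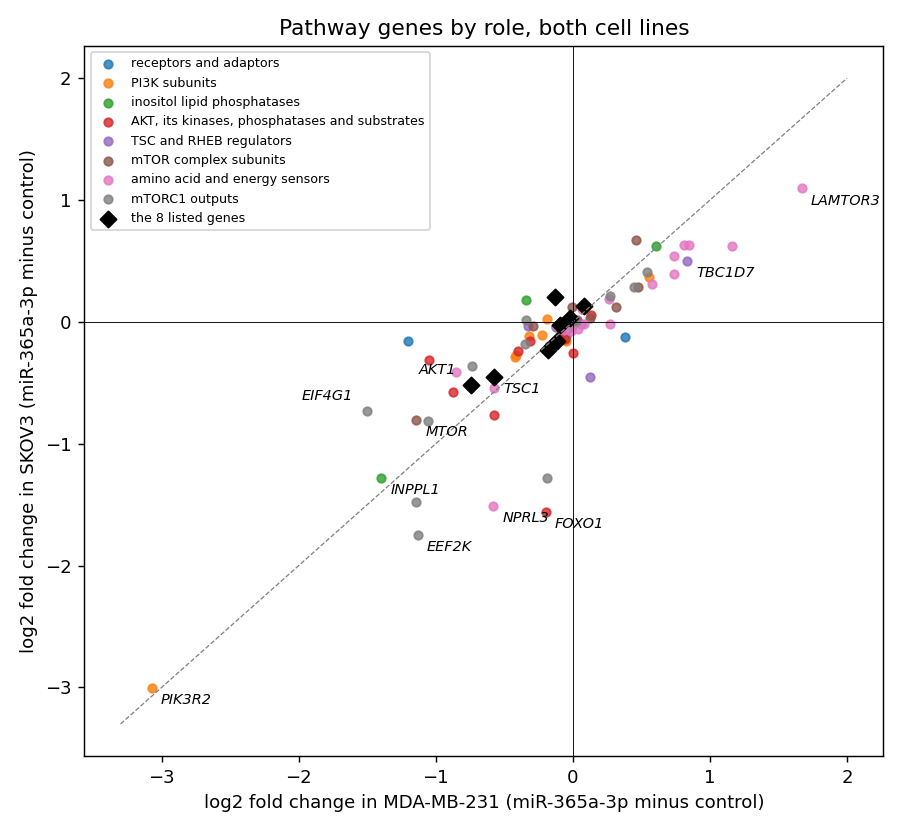
Log2 fold change in SKOV3 (y axis) against MDA-MB-231 (x axis) for the 8 members (diamonds) and 78 other pathway genes (circles, coloured by role), with a dashed line where the changes would be equal. PIK3R2 lay far below the others in both lines (-3.07 and -3.01), and the members lay between -0.75 and 0.20.

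PIK3R2 encodes the regulatory subunit p85 beta, a paralog of the product of PIK3R1. The MDA-MB-231 arrays gave PIK3R2 levels of 10.68, 10.67 and 11.001 with control miRNA and 7.53, 7.67 and 7.93 with miR-365a. For SKOV3, the values were 11.08 and 11.02 with control miRNA and 7.60, 8.47 and 8.07 with miR-365a. The treated arrays were far below the controls in both lines, and the second SKOV3 array was the highest of them. The log2 fold changes were -3.07 ± 0.20 (SE, limma, adjusted p = 2.39e-05) and -3.01 ± 0.23 (SE, adjusted p = 8.99e-05), the largest of the named pathway genes, against -0.18 and -0.23 for PIK3R1.

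MTOR, the kinase of both mTOR complexes, was deposited under its older symbol FRAP1. In MDA-MB-231 the levels of MTOR were 8.83, 8.67 and 8.61 with control miRNA and 7.44, 7.58 and 7.66 with miR-365a, and in SKOV3 8.57 and 8.59 against 7.66, 7.89 and 7.76. The groups were apart in both lines. MTOR fell by 1.14 in MDA-MB-231 (limma, adjusted p = 3.05e-05) and by 0.80 in SKOV3 (adjusted p = 0.000643).

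Of the pathway genes called in both lines with the same sign and with groups apart, 24 in all (5.38% of all genes met this with lower and 5.75% with higher values), the 15 with the largest mean change were selected, 11 lower and 4 higher, and 14 of them are given here. The following pairs of log2 fold changes give MDA-MB-231 before SKOV3. INPPL1, a lipid 5-phosphatase, fell (-1.40 and -1.28). Among AKT substrates, FOXO1 (-0.20 and -1.56), FOXO3 (-0.57 and -0.77) and GSK3B (-0.87 and -0.58) fell. Among the outputs of mTORC1, falls were called for the kinase EEF2K (-1.13 and -1.75), for PDCD4, an inhibitor of EIF4A (-1.14 and -1.48), for the scaffold EIF4G1 (-1.50 and -0.73), and for LARP1, which binds mRNAs of the translation machinery (-1.06 and -0.82). NPRL3, a subunit of the GATOR1 complex that inhibits mTORC1, fell (-0.58 and -1.51), while its partner NPRL2 rose (0.85 and 0.63). With miR-365a, the means of FOXO1, FOXO3 and NPRL3 in MDA-MB-231 and of LARP1 in both lines were near the floor. This limits how far these falls could be seen. TBC1D7, a further subunit of the TSC complex, rose by 0.83 (limma, adjusted p = 0.00014) and 0.50 (adjusted p = 0.00644) where TSC1 and TSC2 fell. Of the 15, 12 were also called in both lines on the deposited values, and NPRL2 and TBC1D7 were not. LAMTOR3, a subunit of the Ragulator complex, rose by 1.67 and 1.10 under the older symbol MAP2K1IP1, but its other deposited symbol MAPKSP1, at a lower level, gave 0.086 (adjusted p = 0.313) and 0.19 (adjusted p = 0.0637), so the deposited symbols of this gene disagreed.

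**Figure D4:**
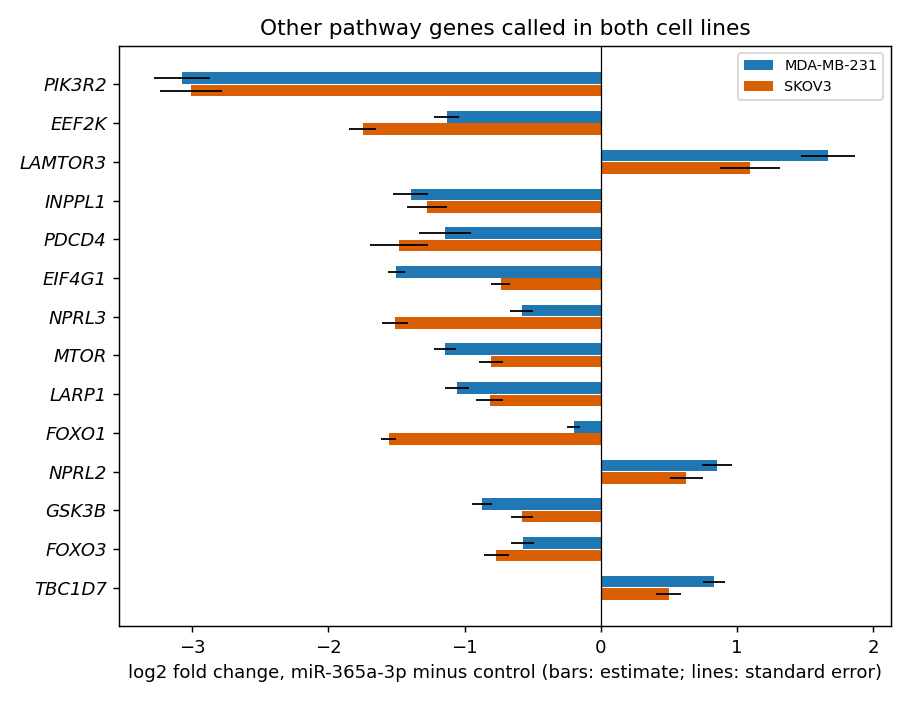
Log2 fold change (x axis) of 14 of the selected pathway genes (y axis) in MDA-MB-231 (blue) and SKOV3 (orange), with bars for the estimate and black lines for its standard error. PIK3R2 fell most in both lines, and LAMTOR3, NPRL2 and TBC1D7 rose.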

How the data were processed

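The authors amplified total RNA to biotin-labelled cRNA, hybridized it to Illumina HumanHT-12 v4 BeadChips and applied lumi's quantile method. They deposited values for 31325 gene symbols on 11 arrays, 1 for each symbol and array, which were taken here as log2. Whether the transformation was log2 or variance-stabilizing, how probes were combined, and any background correction or filter were not given in the sources used here. All columns were used, and no pair of arrays held identical values.

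The deposited columns did not share 1 distribution and were brought to one by quantile normalization (limma 3.58.1, R 4.3.3). A model with 4 group means was fitted to all genes (lmFit, eBayes), with contrasts for miR-365a-3p minus control in each line, their difference and SKOV3 control minus MDA-MB-231 control, and p-values were adjusted over all 31325 genes. Single values were tested by permuting the treatment within cell lines over 200 arrangements, and an exact test within MDA-MB-231 alone cannot give a p below 0.1. Counts, correlations and plots were made in Python 3.11.15 with NumPy 2.4.6, pandas 2.3.3 and matplotlib 3.10.9.

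Groups came from the sample labels. The 8 members and all gene lists were chosen with earlier results of these data known. Named are the 8 members, at most 15 other pathway genes called in both lines with the same sign and groups apart (ranked by mean absolute change), and the 2 genes most like each member. Of the 15, 1 is in the counts and not reported here by name. Where a gene had several deposited symbols, the one with the higher mean was used, which applied to LAMTOR2 and LAMTOR3. For LAMTOR2 neither symbol was called in either line. Pairing by replicate number was checked by correlating deviations from the group means over 6853 genes with a mean above 8. Same-numbered treated and control arrays gave r between -0.12 and 0.23, so the numbers were not taken as pairs. A search of transcripts for seed sites was not run, as no transcript sequences were used here.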

Additional observations from a re-analysis of the deposited data

Results flagged for a closer look

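Limma's test of the difference between the responses of the cell lines (SKOV3 minus MDA-MB-231) called 6 of the 78 other pathway genes and 2.54% of all genes. Of these 6, 3 were among the named pathway genes, which were selected for large changes in these same data. FOXO1, a transcription factor that AKT excludes from the nucleus, fell by 0.20 in MDA-MB-231 and by 1.56 in SKOV3, a difference of -1.36 on the log2 scale (adjusted p = 6.81e-05), and its control mean was 7.53 in MDA-MB-231 and 9.14 in SKOV3. NPRL3 fell by 0.58 and 1.51, a difference of -0.93 (adjusted p = 0.0070), from control means of 7.93 and 8.99. EIF4G1 fell by 1.50 and 0.73, a difference of 0.77 (adjusted p = 0.00414), from control means of 9.16 and 8.33. In each case the line with the higher control level had the larger fall, and the part that the floor of the scale had in this was not tested.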

How the results depend on the processing

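The falls of TSC1 and TSC2 kept their direction and their call in both lines under every setting tried. The count of members lower in MDA-MB-231 went from 4 to 2 with the replicate block within each cell line and ranged from 2 to 5 with 1 array left out. The lowest count came without MDA-MB-231 control 3. With array weights 1 member was higher in SKOV3, and 0 to 1 with 1 array left out. The count of members that differed between the controls was 2 on the deposited values and with median centring, and 0 to 1 with 1 array left out. Of the other pathway genes, the deposited values gave 8 higher in MDA-MB-231, and in SKOV3 32 lower and 3 higher. In SKOV3, 6 were higher with median centring, 4 with each line fitted alone and 1 to 12 with 1 array left out, the lowest without SKOV3 control 2. For the 8 genes, signs turned only for values that were not called. On the deposited values and with median centring, PIK3CA in MDA-MB-231 was -0.14 and -0.11, EIF4EBP1 in SKOV3 -0.082 and -0.045, and the TSC1 difference between the controls 0.061 and 0.047. PIK3CA in SKOV3 was -0.030 on the deposited values. AKT2 was 0.0053 in MDA-MB-231 with array weights and -0.012 in SKOV3 with the replicate block within each cell line, and the PIK3R1 difference of the responses was 0.015 with array weights. With 1 array left out, the ranges were -0.11 to 0.23 for AKT1 between the controls, -0.050 to 0.0050 for AKT2 between the controls, -0.031 to 0.0087 and -0.012 to 0.067 for AKT2 in MDA-MB-231 and SKOV3, -0.14 to 0.082 for the PIK3R1 difference of the responses and -0.21 to 0.017 for EIF4EBP1 in MDA-MB-231. Of 600 refitted values of the 15 selected pathway genes, 11, in 5 genes, lost their call and none turned. The cause of these changes was not tested. Across lines, same-numbered miR-365a arrays deviated together (r between 0.31 and 0.70), but the third MDA-MB-231 array was closest to the second SKOV3 array (r = 0.64). With 2 SKOV3 controls and no detection values, small changes and changes near the floor could not be resolved.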

Other observations

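Another 3 pathway genes outside the naming rule, singled out after their values were seen, also responded differently in the lines by limma's test. ULK1, a kinase that starts autophagy and is inhibited by mTORC1, differed by -0.19 in MDA-MB-231 and -1.28 in SKOV3, with a difference of -1.09 between the responses (adjusted p = 0.00116). SGK1, a kinase related to AKT and activated by mTORC2, differed by -1.05 and -0.31, with a difference of 0.74 (adjusted p = 0.0454). On the deposited values the SGK1 difference was 0.79 and not called (limma, adjusted p = 0.0733). There the SKOV3 fall of SGK1 was called (-0.56, limma, adjusted p = 0.0234), which it was not after quantile normalization (adjusted p = 0.118). TTI1, a co-chaperone of the mTOR kinase family, differed by -0.29 and -0.035, with a difference of 0.26 (adjusted p = 0.0498).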
